A study of Mus musculus with 2 samples.

Results

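Tumour endothelial cells, the cells that line the blood vessels of the tumour, were picked out of a single-cell RNA library of treated 4T1 tumours by marker genes, and 77 of 11976 kept cells were found. This is 0.643% of kept cells (0.508 to 0.803%, exact Clopper-Pearson interval). A cell was kept with 300 genes or more and under 10% mitochondrial UMIs, and was taken as endothelial with 5 or more UMIs of Cdh5, Cldn5, Egfl7, Emcn, Plvap and Kdr together. UMIs, unique molecular identifiers, count the RNA molecules captured from a cell. A selected cell also had to stay below 0.5% of UMIs from the fibroblast genes Col1a2, Col3a1 and Dcn, below 2% from the neutrophil genes S100a8, S100a9, Csf3r and G0s2, below 0.3% from the macrophage genes C1qa, C1qb, C1qc and Apoe, and below 0.1% from the epithelial genes Krt8, Krt18, Krt7 and Epcam.

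The study grew 4T1, a mouse mammary carcinoma line, as tumours under the skin of mice of genotype WT. One library came from the treated group, whose treatment label reads PCN while the design text calls the agent PATCH, and 1 from the control group, which received PBS. Dose, schedule, strain, sex, age and the number of animals behind each library were not given in the sources used here. All 10835 barcodes that the authors list for the treated library were in the count matrix, against 37 of the 11643 control barcodes, and 33 barcodes stand in both lists. None of the 77 endothelial cells has a barcode of the control list. The control library's counts were not used here, so every value below describes endothelial cells of 1 treated library, no value bears on the treatment, and no test between groups was run. Intervals beside values are exact 95% intervals and cover counting error only.

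Blood vessels are built from endothelial cells that differ along the vessel. Arterial cells use Notch signalling and ephrin-B2, capillary cells exchange gases and fatty acids with the tissue, and venous cells carry the selectins and adhesion molecules that slow passing leukocytes. In growing vessels, tip cells lead the sprout under vascular endothelial growth factor (VEGF), and pericytes, the mural cells, wrap the endothelial tube from outside within a shared basement membrane. In tumours, endothelial cells are known for low display of adhesion molecules to leukocytes and for a sprouting program.

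The endothelial cells were deep. They held 646, 9422 and 104719 UMIs (lowest, median, highest), with a median of 3395 genes, against medians of 4334 UMIs and 1764 genes in the 11899 other kept cells. Together they gave 1010282 UMIs, of which the deepest cell held 10.4% and the 14 cells with 20000 UMIs or more held 49.8%. The authors' own list of kept cells holds 62 of the 77, and those 14 deep cells are among the 15 left out. The mitochondrial share was 0, 2.47 and 9.69% in endothelial cells, against a median of 1.72% in other kept cells.

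The selecting genes were far above the limit in most cells. Their summed UMIs were 5, 44 and 278 per cell (lowest, median, highest). At the limit, 4 cells had 5 UMIs and 2 had 6, while just outside it 1 cell that met all other conditions had 4 UMIs, 6 had 3 and 7 had 2. Of 89 kept cells with 5 UMIs or more, 12 were left out, 5 by the macrophage limit alone, 4 by the fibroblast limit alone and 3 by the epithelial limit alone. Cdh5, the VE-cadherin of endothelial junctions, had a UMI in all 77 cells, Emcn in 67, Egfl7 in 65, Kdr in 65, Plvap in 64 and Cldn5 in 54. These genes chose the cells, and their levels are a description.

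Each of 8 endothelial markers that the selection did not use was present in 43 to 75 of the 77 cells. Pecam1, the adhesion molecule CD31, had UMIs in 74 of 77 cells, and stood at 1098 CPM in endothelial cells and 24.4 CPM in other kept cells, as CPM, the UMIs of a gene per 1000000 UMIs summed over a set of cells. Esam, a junction adhesion molecule, had UMIs in 75 cells and 1005 against 2.37 CPM, and Flt1, a VEGF receptor, in 74 cells and 912 against 17.6 CPM. Cd34 was seen in 66 cells, the transcription factor Sox18 in 55, the angiopoietin receptor Tek in 54, and its partner Tie1 and the transcription factor Erg in 43 each. Of the 77 cells, 73 had UMIs of 3 or more of these 8 genes and 1 had none. In those 73 cells the name endothelial thus rested on genes beyond the rule as well. Free RNA gives some UMIs to every cell, so macrophage and neutrophil shares are given as background. Depth differs between classes, so shares were taken at 1000 UMIs a cell, which does not remove free RNA. Esam then had a UMI in 60% of the 75 endothelial cells deep enough, 0.0492% of macrophages and 0.0445% of neutrophils. Macrophages had a median depth of 9590 UMIs, close to that of endothelial cells, and neutrophils 1762.

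**Figure D1:**
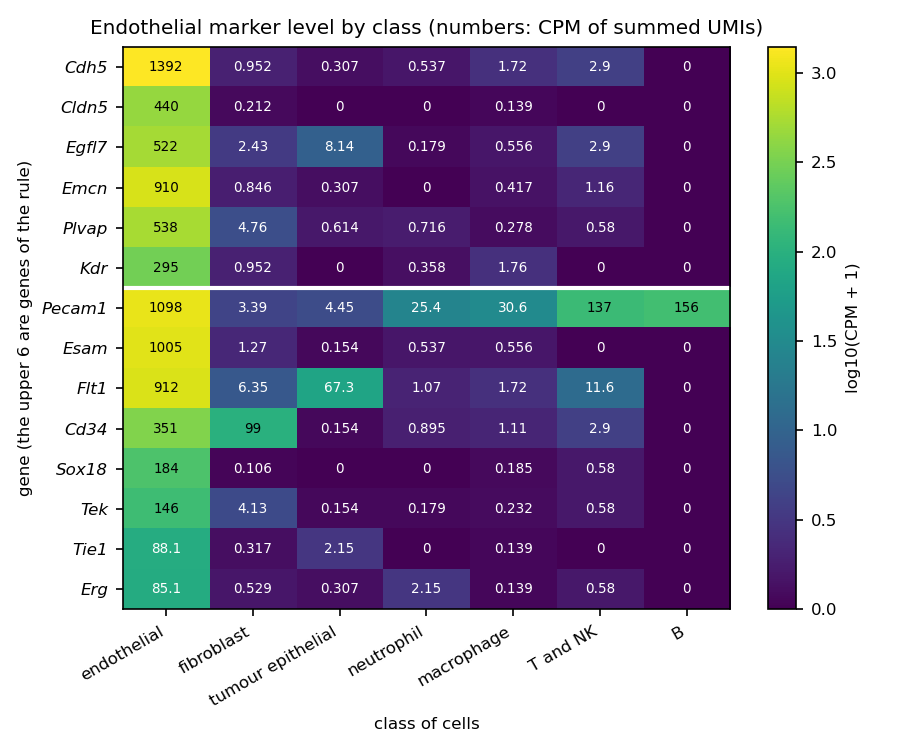
CPM of summed UMIs (numbers) and log10(CPM + 1) (colour) of 14 endothelial markers, down the page, in endothelial cells and 6 other classes, across the page; the line parts the 6 genes of the rule from 8 genes it did not use. The 8 genes that the rule did not use were all highest in endothelial cells. Of these, Pecam1 was also seen in B cells at 156 CPM and Cd34 in fibroblasts at 99 CPM. The height of the 6 genes of the rule was set by the selection and is no finding.

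Transcription factors of the ETS family, among them Erg and Fli1, are known to drive endothelial genes through a GGAA core. Erg was nearly restricted to the endothelial cells here (85.1 against 0.737 CPM), whereas Fli1 was shared with blood cells (353 against 127 CPM). The 250 bases before the start of each gene were therefore searched for AGGAAG on either strand, in RefSeq's promoter table of build GRCm38.p6. The letters were found in 11 of the 18 genes of a pan-endothelial list that the table holds (61.1%), in 5 of the 12 held among the 20 genes with the highest ratio (41.7%) and in 2 of the 4 held selecting genes, against 29.2% of all 27025 promoters. A GATA motif, AGATAA, stood in 2 of the 18 pan-endothelial promoters (11.1%), 2 of the 12 (16.7%) and 0 of the 4, against 10.3% of all. A KLF motif, CACACCC, stood in 2 of the 18 (11.1%), 3 of the 12 (25%) and 0 of the 4, against 6.8% of all. The stretches are printed for 2 selecting genes and 3 of the highest genes with AGGAAG, and for contrast Esm1, a tip cell gene without it, each 5′ to 3′ on the gene's strand and ending at the base before the start of the gene. Capitals mark AGGAAG or its complement CTTCCT.
Egfl7 (chr2:26580833-26581082, + strand): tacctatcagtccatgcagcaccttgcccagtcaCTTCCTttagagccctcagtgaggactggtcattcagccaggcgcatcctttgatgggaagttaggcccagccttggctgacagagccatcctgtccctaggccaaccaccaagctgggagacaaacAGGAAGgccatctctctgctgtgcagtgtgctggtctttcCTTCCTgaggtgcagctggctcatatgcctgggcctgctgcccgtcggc
Emcn (chr3:137340828-137341077, + strand): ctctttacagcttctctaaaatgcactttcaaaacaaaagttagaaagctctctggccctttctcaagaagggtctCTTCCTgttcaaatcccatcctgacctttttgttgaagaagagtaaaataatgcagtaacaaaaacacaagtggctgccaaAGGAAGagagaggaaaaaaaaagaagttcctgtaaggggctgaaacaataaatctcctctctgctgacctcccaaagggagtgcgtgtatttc
Rbp7 (chr4:149454969-149455218, - strand): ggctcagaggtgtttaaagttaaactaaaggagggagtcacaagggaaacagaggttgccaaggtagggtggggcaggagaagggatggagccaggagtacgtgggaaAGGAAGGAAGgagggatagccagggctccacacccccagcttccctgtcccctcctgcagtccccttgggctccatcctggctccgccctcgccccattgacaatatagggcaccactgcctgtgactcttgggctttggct
Robo4 (chr9:37401722-37401971, + strand): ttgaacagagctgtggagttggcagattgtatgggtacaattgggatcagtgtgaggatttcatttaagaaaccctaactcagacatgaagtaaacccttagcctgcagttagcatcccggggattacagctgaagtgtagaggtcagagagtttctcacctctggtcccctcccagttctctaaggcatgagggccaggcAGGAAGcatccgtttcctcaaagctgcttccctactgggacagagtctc
Adgrl4 (chr3:151437632-151437881, + strand): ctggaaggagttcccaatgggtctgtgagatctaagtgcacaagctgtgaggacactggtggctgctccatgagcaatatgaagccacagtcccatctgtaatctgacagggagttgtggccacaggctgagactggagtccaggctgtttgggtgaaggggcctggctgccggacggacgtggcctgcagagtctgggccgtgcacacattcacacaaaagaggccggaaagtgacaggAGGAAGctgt
Esm1 (chr13:113209409-113209658, + strand): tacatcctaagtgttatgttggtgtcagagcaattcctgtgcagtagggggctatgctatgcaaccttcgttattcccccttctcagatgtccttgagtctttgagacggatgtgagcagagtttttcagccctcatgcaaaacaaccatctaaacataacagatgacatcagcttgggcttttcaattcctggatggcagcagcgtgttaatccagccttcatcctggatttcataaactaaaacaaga
Egfl7, for which the first of 3 listed starts is shown, held 3 matches, beginning at positions -216, -89 and -49 from the start. Emcn held 2, at -174 and -93, and the 2 matches of Rbp7 overlap at -142 and -138. Robo4 held 1, at -49, and Adgrl4 1, at -10. A match is a run of letters and not a measured binding site.

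Against all other kept cells, 626 of 9119 genes that could be compared were at least 4-fold higher in endothelial cells (6.86%) and 674 at least 4-fold lower (7.39%). A gene entered the comparison where the mean of both CPM values amounted to 10 or more UMIs in endothelial cells. The median log2 ratio of all genes entered was 0.14. The other kept cells included 2577 neutrophils and 2063 macrophages, so the 489 fibroblasts served as a second comparison, with 663 of 9024 genes (7.35%) past 4-fold in each direction. Of the 32 genes of the pan-endothelial list, 31 were at least 4-fold higher against either, with a median log2 ratio of 6.90 against other kept cells. The exception was Fli1, at a ratio of 2.78 (2.49 to 3.09).

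The 20 genes with the highest ratios outside the rule, each with 50 UMIs or more, were 359.9 to 815 times as high in endothelial cells as in other kept cells. Sox17, a factor of arterial endothelium, had 182 UMIs in 53 cells and stood at 180.1 CPM in endothelial cells and 0.221 CPM in other kept cells, a ratio of 815 (517 to 1348). Gpihbp1, which carries lipoprotein lipase to the capillary lumen, stood at 551 against 0.758 CPM, a ratio of 727 (568 to 943). Rbp7, a retinol binding protein of endothelium, reached 705 (506 to 1007), and Depp1, a gene controlled by FOXO factors, 691 (533 to 910.3). Ptprb, the vascular endothelial phosphatase that acts on VE-cadherin and the angiopoietin receptor, reached 556 (438 to 714), and Robo4, an endothelial guidance receptor, 542 (339 to 907). The next were Tmem252, Kcna5, Sox18, Aplnr, Stmn2, Myct1, Timp4, Esam, C130074G19Rik, Esm1, Adgrl4 and Shank3, from 359.9 to 552, with Fam110d at 635. Tmem252 was seen in 64 cells, Adgrl4 in 70 and Ptprb in 66. In contrast, Nts, which encodes neurotensin, had 118 of 132 UMIs in 1 cell, Esm1 84 of 137 and Stmn2 32 of 53.

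At the low end, Camp, Igkc, Mmp2, Sdk1, Cdh1, Pilra, Abi3bp, Dclk1 and Chl1 had 0 UMIs in endothelial cells, which allows up to 2.97 CPM at 3 counts, against 41.2 to 99.4 CPM in other kept cells. Ngp, a neutrophil granule gene, had 1 UMI. These genes belong to neutrophil granules (Camp), antibody (Igkc), matrix breakdown (Mmp2) and epithelial junctions (Cdh1), among others. The rule limited neutrophil, fibroblast, macrophage and epithelial UMIs, so low levels of genes of those cells were in part set by the selection.

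**Figure D2:**
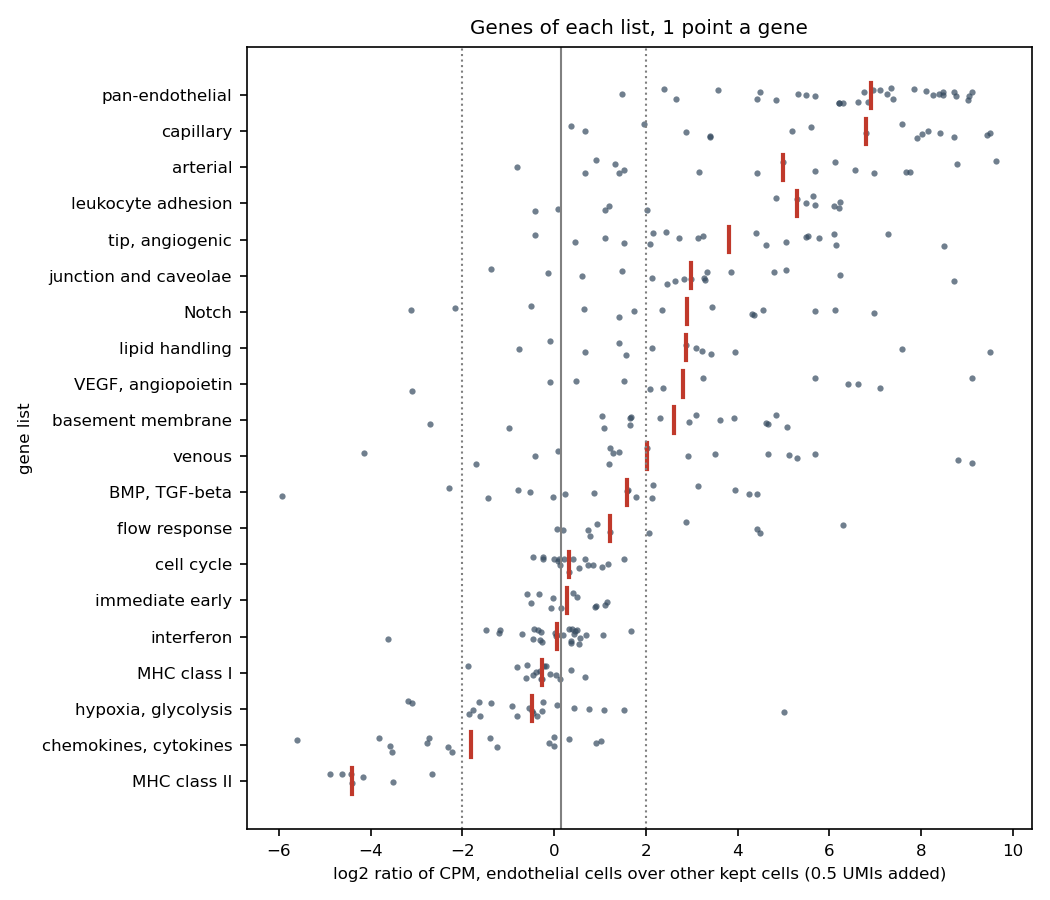
log2 ratio of CPM in endothelial cells over other kept cells (x axis), 1 point a gene, for 20 gene lists (y axis); red bars are list medians, dotted lines mark 4-fold either way and the solid line the median of all genes, 0.14. The pan-endothelial list sat at a median of 6.90 and MHC class II at -4.41, while cell cycle, immediate early and interferon genes lay around the median of all genes.

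VEGF and angiopoietin signalling was present mainly as receptors. Of 12 genes of this list that entered, 8 were at least 4-fold higher and 1 lower, with a median log2 ratio of 2.81. Kdr, a VEGF receptor, is counted among these 8 and in the median. It is a selecting gene, so its height was set by the rule and is no finding. Flt1, a decoy-like receptor for VEGF, stood at 912 against 17.6 CPM, a ratio of 51.7 (47.6 to 56). Flt4, the receptor for VEGF-C, stood at 45.5 against 0.537 CPM, Tek at 146 against 1.06 CPM and Tie1 at 88.1 against 0.895 CPM. The co-receptor Nrp1 was 5.17 times as high as in other cells, and Nrp2 1.38 times. Among ligands, Vegfa was lower at 16.8 CPM in endothelial cells and 147 CPM in other kept cells, with 17 UMIs in 9 endothelial cells, and Vegfb and Vegfc had ratios of 0.918 and 2.83. The autocrine ligand Angpt2, which loosens vessels, was higher (79.2 against 8.4 CPM) but 23 of its 80 UMIs came from 1 cell. Pgf, placental growth factor, was 4.2 times as high, with 43 UMIs in 11 cells.

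Notch signalling genes were split. Of 14 that entered, 8 were at least 4-fold higher and 2 lower, with a median log2 ratio of 2.89. The ligand Dll4 stood at 106 against 0.842 CPM (36 cells) and Jag2 at 56.4 against 2.78 CPM, and Jag1 was 2.65 times as high. The receptor Notch4 stood at 75.2 against 1.46 CPM and Notch1 at 175 against 34.6 CPM, whereas Notch2, a receptor also used by myeloid cells, was lower (18.8 against 169 CPM). Rbpj, the DNA-binding partner of all Notch receptors, was lower as well (118 against 532 CPM). The target genes Hey1 (27.7 against 0.40 CPM) and Nrarp (87.1 against 3.75 CPM) were past 4-fold, and Hes1 (117 against 35.3 CPM) was not. Of the Fringe enzymes Mfng was 10.8 times and Lfng 0.686 times the level of other cells. Notch3, which was 19.7 times as high, is a receptor of mural cells. It stood at 136 CPM (99.2 to 182) in the 29 endothelial cells with 3 or more UMIs of 6 mural genes, Notch3 among them, and at 2.94 CPM (0.356 to 10.6) in the other 48. Dll1, Hey2 and Heyl had 15, 1 and 6 UMIs and did not enter.

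In the BMP and TGF-beta list 6 of 17 genes were higher and 2 lower, where 6.86% of all genes entered were higher and 7.39% lower. Eng, the co-receptor endoglin, stood at 280.1 against 13 CPM and its signalling partner Acvrl1 at 52.5 against 12 CPM. The ligands Bmp2 and Bmp6 were 18.9 and 15.2 times as high, and 35 of 81 Bmp2 UMIs were in 1 cell. The target gene Id1 was higher (359 against 40.8 CPM), whereas Id2, abundant in leukocytes, was lower (58.4 against 287 CPM). Genes that respond to blood flow were mixed, with 5 of 11 higher and 0 lower. Nos3, the endothelial nitric oxide synthase, stood at 76.2 against 0.969 CPM and the sphingosine receptor S1pr1 at 344 against 15.3 CPM, while the flow-induced factors Klf2 (1475 against 633 CPM) and Klf4 (368 against 221 CPM) stayed under 4-fold. Against fibroblasts, 3 of 17 BMP and TGF-beta genes were higher and 2 lower. Of 12 flow genes, 3 were higher and 1 lower than in fibroblasts.

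Junction, barrier and caveolar genes were higher as a group, 13 of 17 with 0 lower and a median log2 ratio of 2.98. Beside Esam, the junction molecule Jam2 stood at 119.8 against 1.59 CPM and F11r at 175 against 18.3 CPM, and the scaffold Tjp1 was 7.13 times as high. The caveolar genes Cav1 (985 against 35.6 CPM) and Cavin2 (229.6 against 6.89 CPM) were 27.7 and 33.4 times as high as in other kept cells. The drug exporters Abcg2 and Abcb1a were 14.5 and 9.94 times as high. Slc2a1, the glucose transporter of the blood-brain barrier, stood at 42.6 against 112 CPM, and the barrier lipid transporter Mfsd2a had 0 UMIs.

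Adhesion molecules for leukocytes were carried unevenly. Of 13 that entered, 9 were at least 4-fold higher and 0 lower, but the inducible ones were scarce or shared with other cells. Icam2, which is constitutive on endothelium, stood at 191 against 2.58 CPM in 57 cells, and the vessel-wall glycoproteins Podxl and Mcam were 49.6 and 68.5 times as high. Icam1 stood at 138 against 60.4 CPM, a ratio of 2.28 (1.91 to 2.7). Vcam1 stood at 30.7 against 41.8 CPM, a ratio of 0.734 (0.498 to 1.04), below the 149 CPM of fibroblasts. P-selectin, Selp, had 97 UMIs in 11 cells, E-selectin, Sele, 13 UMIs in 8 cells, and the chemokine carrier Ackr1 41 UMIs in 6 cells. The remaining members were Cd34, Pecam1 and Jam2, all higher, Cd151 (4.07 times), Cd99l2 (2.11 times) and Stab1 (1.05 times). Of 8 genes of high endothelial venules, the vessels that recruit lymphocytes, 5 had 0 UMIs.

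Of 16 chemokine and cytokine genes, 8 were at least 4-fold lower than in other kept cells and 0 higher, with a median log2 ratio of -1.80. Cxcl2 stood at 1146 against 7864 CPM, Ccl2 at 188 against 933 CPM, Ccl7 at 136 against 896 CPM and Ccl8 at 26.7 against 384 CPM. Cxcl12 (142 against 75.3 CPM) and Cxcl9 (28.7 against 29.2 CPM) were under 4-fold either way, although fibroblasts held more of both (666 and 100.4 CPM). Against fibroblasts, 7 of 15 chemokine and cytokine genes were lower and 0 higher. The alarmin Il33 had 0 UMIs in endothelial cells.

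Antigen presentation differed by class. All 7 MHC class II genes that entered were at least 4-fold lower, with Cd74, the class II chaperone, at 15.8 against 483 CPM and H2-Aa at 14.8 against 333 CPM. Against fibroblasts, 0 of the 4 that entered were lower. MHC class I genes were near other cells, with 1 of 16, the class I regulator Nlrc5, at least 4-fold lower on 5 UMIs. H2-K1 stood at 1218 against 949.7 CPM and B2m at 809 against 999 CPM. Of 27 interferon-response genes, 1 (Ifi27l2a) was lower and 0 higher, with a median log2 ratio of 0.07, and the highest ratio among those that entered was that of Iigp1, 3.19. Over all genes entered, 6.86% were higher and 7.39% lower, and the class I and interferon counts are near those shares. Among ligands of T-cell checkpoints, 4 of 14 were higher and 3 lower. The higher ones were Cd200 (178 against 8.35 CPM), Cd276 (109.9 against 17.5 CPM), Tnfsf10 (33.7 against 2.72 CPM) and Nectin2 (79.2 against 14.5 CPM). Cd274, which encodes PD-L1, was lower at 10.9 against 182 CPM with 11 UMIs in 7 cells, and the co-stimulator Cd86 was lower too (13.9 against 232 CPM).

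Basement membrane genes were higher in 9 of 16 and lower in 1, with a median log2 ratio of 2.62. Col4a1 and Col4a2, the collagen IV chains, stood at 1804 against 71.6 CPM and 969 against 33.9 CPM, the laminin chain Lama4 at 250.4 against 16.5 CPM, the perlecan gene Hspg2 at 634 against 51.5 CPM and Col15a1 at 341 against 10.1 CPM. Col4a1 was 0, 1681 and 5219.6 CPM per cell (lowest, median, highest) and was seen in 74 cells. Fibroblasts also make this matrix, with 274 CPM of Col4a1 and 249 CPM of Hspg2, and against them 5 of 16 were higher and 2 lower. Bgn, a matrix proteoglycan, was lower (28.7 against 190.3 CPM).

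Lipid handling genes were higher in 8 of 13 with 0 lower, a median log2 ratio of 2.87. Fabp4, a fatty acid binding protein of capillaries and fat cells, held 15644 UMIs, 1.55% of all endothelial UMIs, and stood at 15485 against 80.6 CPM, a ratio of 192 (187 to 198). It was 0, 15846 and 112555 CPM per cell and was seen in 75 of 77 cells. At 1000 UMIs a cell, 85.3% of endothelial cells, 18.6% of fibroblasts, 1.67% of macrophages and 1.73% of neutrophils had a UMI of it. The fatty acid receptor Cd36 stood at 834 against 114 CPM, the lipoprotein receptor Scarb1 at 334 against 31.3 CPM, the lipase inhibitor Angptl4 at 178 against 19.2 CPM and Pparg, a factor that induces Fabp4 and Cd36, at 91.1 against 5.96 CPM. Lpl itself had a ratio of 1.59. Against fibroblasts 6 of 13 were higher and 0 lower.

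Hypoxia and glycolysis genes were not higher as a group. Of 21, 1 was higher and 2 lower, near the 6.86% and 7.39% of all genes entered, with a median log2 ratio of -0.49. The higher one was Epas1, the endothelial HIF-2 alpha gene, at 382 against 11.9 CPM, while Hif1a stood at 354 against 497 CPM. The lower ones were Vegfa and the hexokinase gene Hk2 (15.8 against 149 CPM). With a mean over cells in place of a sum, 7 were lower. Of vasomotor genes, 6 of 14 were higher and 1 lower. The endothelin gene Edn1 stood at 74.2 against 3.45 CPM, its converting enzyme Ece1 at 545 against 107 CPM, and the adrenomedullin receptor pair Ramp2 and Calcrl at 597 against 5.53 CPM and 151 against 12.8 CPM, whereas Ptgs2 was lower (41.6 against 320.4 CPM). Among 12 coagulation genes 4 were higher and 1 lower. Thbd, Procr and Tfpi, which hold back clotting, were 4.19, 4.74 and 8.14 times as high, and Vwf, the platelet-binding factor, had 29 UMIs in 12 cells.

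Cell cycle genes did not set endothelial cells apart by 4-fold. Of 17 cell cycle genes, 0 were past 4-fold in either direction, where 6.86% of all genes entered were higher and 7.39% lower. A total of 8 cells had 10 or more UMIs of Mki67, Top2a, Cdk1, Birc5 and Ube2c together and held 693 of the 723 such UMIs, and 6 of the 8 had 20000 UMIs or more. Among cells of that depth the share was 42.9% in endothelial cells and 43.9% in the 1081 other kept cells. At 1000 UMIs a cell, 13.3% of endothelial cells (6.58 to 23.2%) and 11.5% of other kept cells (10.9 to 12.1%) had a UMI of these genes. Immediate early genes, which respond to handling as well as to growth factors, were past 4-fold in 0 of 12, with Fos at 1572 against 1651 CPM and Jun at 1131 against 524 CPM.

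Genes of every part of the blood vessel tree were present. Of capillary genes 14 of 17 were at least 4-fold higher than in other kept cells and 0 lower, of tip cell genes 16 of 20 and 0, of arterial genes 11 of 17 and 0, and of venous genes 9 of 17 and 1. Of 5 lymphatic genes that entered, Flt4 and Nts were higher and Pdpn (17.8 against 249 CPM) lower. Most cells fell to the capillary state under the assignment used here. Each cell took the state of which it had most UMIs, with 2 or more needed: Gja4, Gja5, Sema3g, Hey1 and Bmx for arterial, Gpihbp1, Car4, Cd300lg, Btnl9 and Rgcc for capillary, Ackr1, Selp and Nr2f2 for venous, Esm1, Apln, Angpt2 and Pgf for tip, and Prox1, Mmrn1 and Reln for lymphatic cells. This gave 54 capillary cells (70.1%, 58.6 to 80%), 8 tip cells (10.4%, 4.59 to 19.4%), 7 venous cells (9.09%, 3.73 to 17.8%), 2 arterial cells (2.6%, 0.316 to 9.07%) and 6 without a state. The sets of assigning genes were unequal in size and in UMIs, and the UMIs were not scaled between sets. Gpihbp1 held 557 UMIs, against 155 of Gja4, 161 of Nr2f2 and 196 of Apln. The shares therefore depend on the genes chosen, and how far was not tested. No cell was lymphatic (0%, 0 to 4.68%), where a floor of 3 cells in 77 would be 3.9%. Mmrn1, Reln and Ccl21a had 0 UMIs, and Prox1, the lymphatic master factor, had 5. The states overlapped, since 20 of the 21 cells with 2 or more arterial UMIs also had 2 or more capillary UMIs, as did 26 of 31 with venous and 21 of 26 with tip UMIs. Median depth was 22105.5 UMIs in tip, 12856 in venous and 8967 in capillary cells, and 4 of the 8 tip cells are in the authors' list. The deepest tip cell held 104719 of the 265118 tip UMIs and was assigned by 46 tip against 45 capillary UMIs. With each cell thinned to 2000 UMIs, 37 of 72 were capillary, 6 venous, 5 tip, 4 arterial and 20 without a state.

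Of the capillary genes not yet named, Btnl9, Kcne3 and the transcription factor Tcf15 had ratios of 245, 264 and 349, and Cd300lg, which binds polymeric immunoglobulins, 111. Meox2, a factor of heart and muscle capillaries, Sparcl1, the carbonic anhydrase gene Car4 and Ly6c1 were 48.1, 36.2, 10.5 and 10.5 times as high, whereas Rgcc (3.86) and Sgk1 (1.29) stayed under 4-fold. Of the arterial genes, the connexins Gja4 and Gja5 had ratios of 205 and 94 and the semaphorin Sema3g 221. Of the venous genes, Nr2f2, the factor that sets venous identity, stood at 159 against 14 CPM, Ephb4, the venous partner of ephrin-B2, at 65.3 against 8.74 CPM and the protease gene Tll1 at 44.5 against 1.29 CPM. Cpe, Csrp2, Il6st, Il1r1 and Ptgs1 had ratios of 2.43, 2.65, 2.31, 1.05 and 0.294. Of the tip genes, Vwa1, Trp53i11, Apold1 and Inhbb were 155, 71, 55 and 46.4 times as high, Nid2 24.5 times, and Chst1, Fscn1 and Lxn 8.79, 5.44 and 4.4 times. Adm, Plod1, Itga5 and Cxcr4, all with wider use outside endothelium, had ratios of 2.83, 2.14, 1.37 and 0.743. Of the lymphatic genes, Lyve1 and Itga9 had ratios of 0.554 and 0.682, and Maml1 of the Notch genes 1.55.

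**Figure D3:**
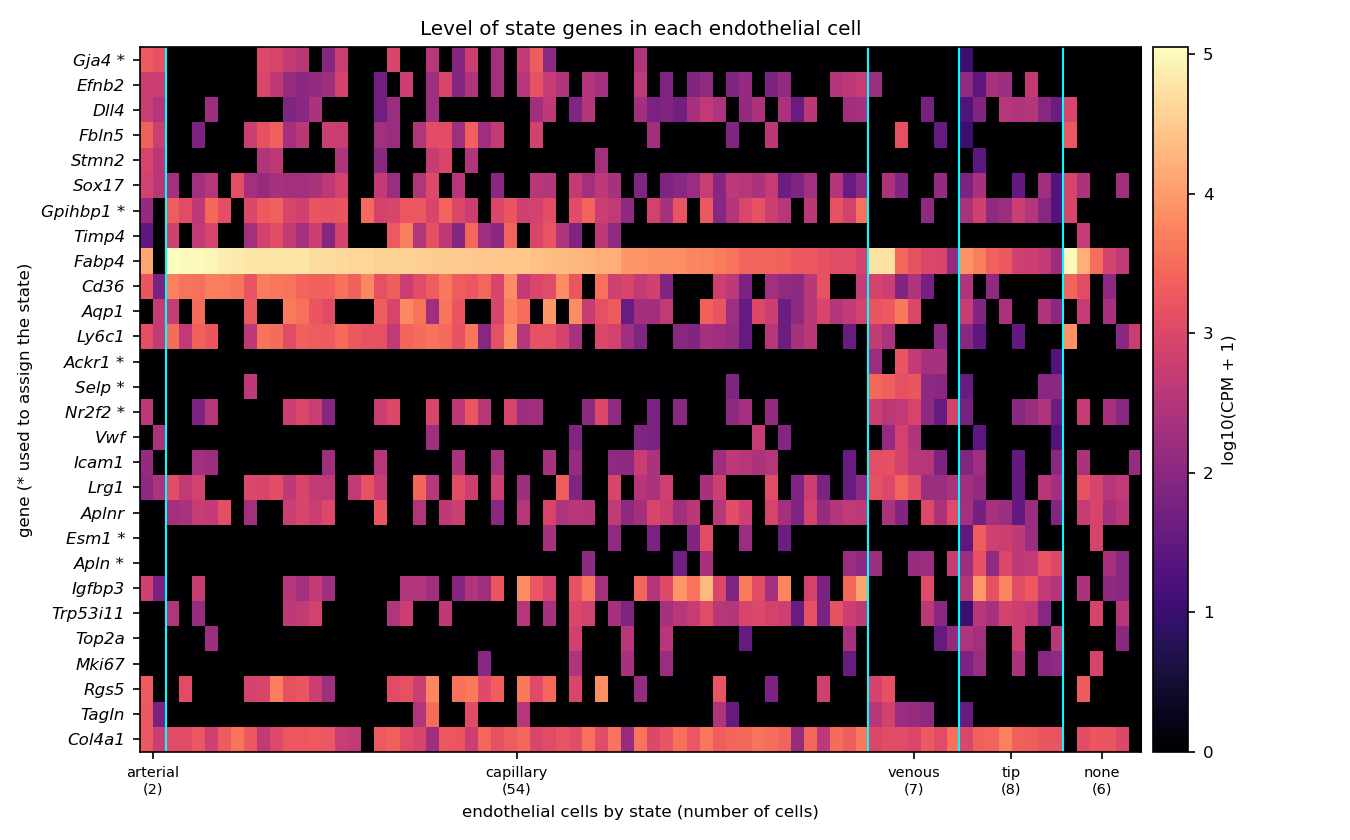
log10(CPM + 1) of 28 genes (rows) in each of the 77 endothelial cells (columns), grouped by state with cell numbers below and ordered by Fabp4 within a state; an asterisk marks genes used to assign the state. Fabp4 and Col4a1 run through nearly all cells, and Timp4 was seen in 27 capillary cells and in 0 venous or tip cells. Cell cycle genes gather in the 4 deepest tip cells and a few capillary cells.

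Fabp4 and other lipid handling genes were higher in capillary cells than in venous and tip cells. Over genes that did not assign the states, the capillary list summed to 28700.4 CPM (28259 to 29147) in capillary cells, 11090.4 CPM (10438 to 11773) in venous and 5349 CPM (5074 to 5634) in tip cells, most of it Fabp4. The 2 arterial cells stood at 1202 and 17713 CPM, and the deepest tip cell held 833 of the 1110 tip Fabp4 UMIs. Fabp4 itself was 769, 27812 and 112555 CPM in capillary cells (lowest, median, highest), 127, 1558 and 59305 CPM in venous cells and 156, 1254 and 7955 CPM in tip cells. The ranges overlapped, and 2 venous cells stood with the capillary ones at the high end. Those 2 cells held 362 and 432 of the 898 venous Fabp4 UMIs. They also held 16 and 17 UMIs of the 6 mural genes, and no other venous cell had more than 2. Timp4, an inhibitor of metalloproteinases, had 134 of 137 UMIs in capillary cells and 0 in venous and tip cells. Cd36 summed to 1287 CPM (1195 to 1384) in capillary cells, against 165 CPM (94.1 to 267) in venous and 117 CPM (79.4 to 166) in tip cells, where 30 of 31 UMIs came from 1 cell. Lpl was at 297 CPM (254 to 346) in capillary cells, with 0 UMIs in tip cells, Scarb1 at 511 CPM (454 to 574) against 106 CPM (70.2 to 153) in tip cells, and the potassium channel gene Kcna5 had 53 of 58 UMIs in capillary cells. Aqp1, the water channel, did not follow this, with per-cell medians of 497 CPM in capillary and 992 CPM in venous cells, and 55 of 93 venous UMIs in 1 cell.

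The leukocyte adhesion list, over genes that did not assign a state, summed to 2849.8 CPM (2524 to 3206) in venous and 2818 CPM (2681 to 2960.4) in capillary cells. Single members, picked here after their values were seen, stood apart. Icam1 summed to 432 CPM (311 to 584) in venous cells, 123 CPM (95.6 to 155) in capillary and 79.2 CPM (49 to 121) in tip cells, and had UMIs in 6 of 7 venous cells and 18 of 54 capillary cells. Lrg1, a glycoprotein of inflamed venules, was 164, 1041 and 2489 CPM per venous cell (lowest, median, highest) and 0, 199 and 2657 CPM per capillary cell. Vcam1 was seen in 6 of 7 venous and 7 of 54 capillary cells. Sele was seen in 4 venous cells on 7 UMIs, and the cytokine receptor Il6st stood at 370.4 CPM (259 to 513) in venous against 107 CPM (81.5 to 137) in capillary cells. Vwf had 15 UMIs in 3 venous cells and 8 in 6 capillary cells. Cldn5, a selecting gene of tight junctions, was seen in 1 of 7 venous and 41 of 54 capillary cells, while Plvap, the diaphragm gene of leaky venules, was at 977 CPM (791 to 1195) in venous and 532 CPM (474 to 596) in capillary cells. One venous cell held 94 UMIs of the myeloid gene Lyz2, whose part in these values was not tested.

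Cell cycle genes were highest in the tip cells, mainly in the 4 deepest of them. The cell cycle list summed to 4541 CPM (4288 to 4805) in tip cells, 939.9 CPM (861 to 1024) in capillary, 504 CPM (373 to 666) in venous and 132 CPM (53 to 271) in arterial cells, and 4 of the 8 cycling cells were tip cells and 4 capillary cells. Of the 1204 tip UMIs of the list, 376 came from the deepest tip cell, whose assignment was nearly tied with capillary. The 4 cycling tip cells held 32141 to 104719 UMIs and are outside the authors' list. The 4 shallower tip cells held 2, 7, 34 and 0 UMIs of the list. Whether depth or state carries the difference was not tested. Cdk1, the kinase that drives mitosis, had 135 of 158 UMIs in 5 tip cells. Per cell the list was 0, 3369 and 8120.5 CPM in tip cells (lowest, median, highest) and 0, 287 and 7611 CPM in capillary cells, so the ranges overlapped. Tip genes that did not assign the state summed to 5281 CPM (5008 to 5565) in tip and 5379.8 CPM (5189.6 to 5575) in capillary cells. Per cell they were 1757, 5766 and 15999 CPM in tip cells (lowest, median, highest) and 425, 2901 and 30498 CPM in capillary cells, with a higher median in tip cells, sums with overlapping intervals and overlapping ranges. Igfbp3, a growth factor binding protein, was seen in all 8 tip cells at 306, 1319 and 9574 CPM (lowest, median, highest), in 34 of 54 capillary cells at 0, 196 and 20716 CPM and in 1 of 7 venous cells. The adhesion gene Mcam was 159.7, 616 and 800.1 CPM in tip cells and 0, 144 and 1649 CPM in capillary cells. Of the assigning genes, Esm1, the sprout marker endocan, had 84 of 137 UMIs in 1 tip cell, whereas Apln, a ligand made by tip cells, was in all 8. Aplnr, its receptor, had per-cell medians of 119 CPM in tip, 281 CPM in capillary and 260.1 CPM in venous cells.

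**Figure D4:**
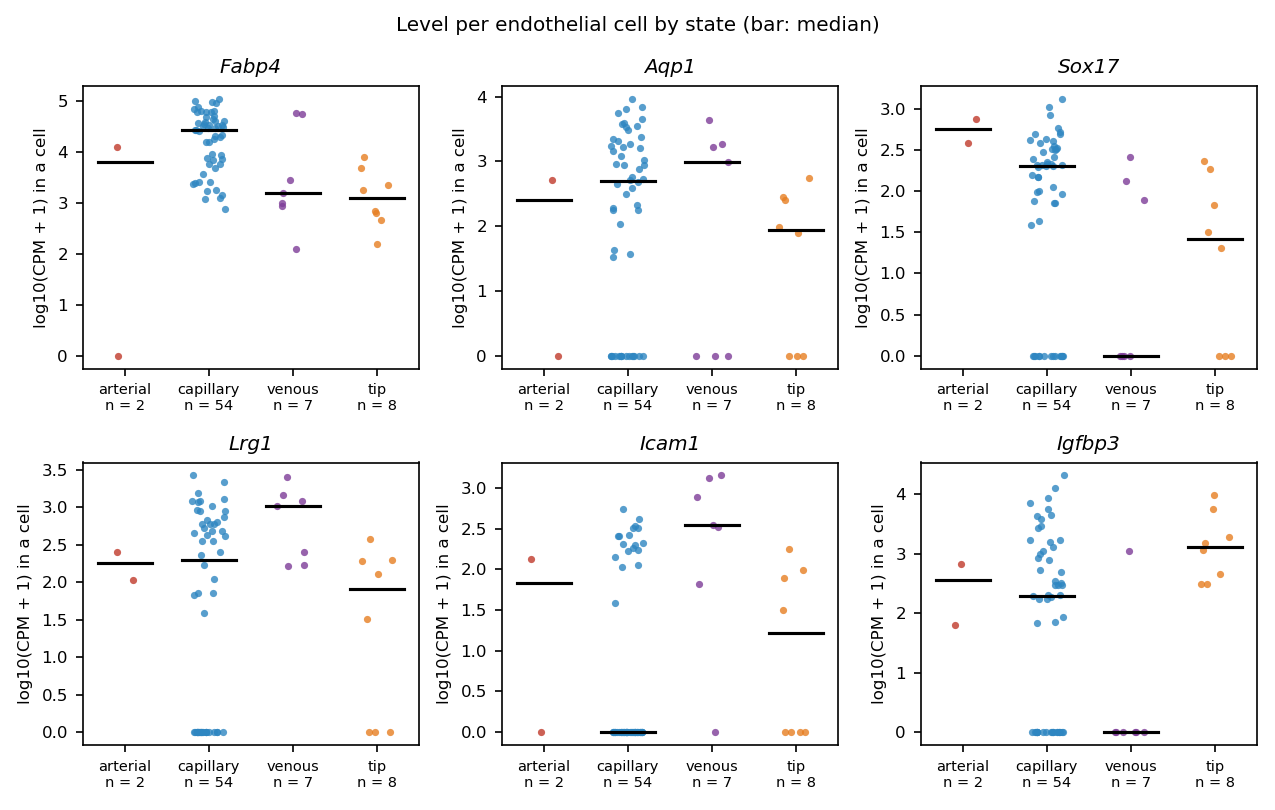
log10(CPM + 1) per cell (y axis) of 6 genes that did not assign the states, in 2 arterial, 54 capillary, 7 venous and 8 tip cells (x axis); points are cells and bars medians. Median Fabp4 was 27812 CPM in capillary, 1558 CPM in venous and 1254 CPM in tip cells; Igfbp3 was above 0 in all tip cells, and Icam1 was above 0 in 6 of 7 venous cells.

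The 2 arterial cells had 15806 and 37317 UMIs and shared Notch ligands and ephrin-B2, genes that did not assign the state. Dll4 stood at 316 and 616 CPM, Jag1 at 506 and 724 CPM, Efnb2, the arterial ephrin, at 569 and 589.5 CPM, and Fbln5, an elastic fibre gene, at 633 and 2412 CPM. In capillary cells the summed levels were 96.1, 48.1, 148 and 158 CPM in the same order, and in venous cells 10.3, 20.6, 10.3 and 206 CPM, with 19 of 20 venous Fbln5 UMIs in 1 cell. Epas1 was at 1582 and 2144 CPM in the arterial cells and at 385 CPM over capillary cells, and Klf4 at 379.6 and 2117 CPM against 397 CPM. The 2 cells differed in other genes. The shallower had 0 Fabp4 UMIs and 0 mural UMIs, and the deeper 481 Fabp4 UMIs, 104 mural UMIs and 118 UMIs of Nts. Over all cells, the other arterial genes with 10 UMIs or more were Unc5b (1.58 times other cells), Mgp (0.566 times), Vegfc and Cxcl12 as above, Eln (2.49 times) and Stmn2, which had 32 of 53 UMIs in 1 arterial cell.

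UMIs of mural genes were present in a large part of the endothelial cells. Pdgfb, the endothelial ligand that recruits pericytes, was seen in 51 cells at 188 against 28.4 CPM. Rgs5, Pdgfrb, Cspg4, Notch3, Abcc9 and Kcnj8, which mark pericytes, together had 3 or more UMIs in 29 of 77 cells (37.7%, 26.9 to 49.4%) and 10 or more in 20. The share with 3 or more was 41.9% among fibroblasts, 0.873% among tumour epithelial cells and 0% among neutrophils, macrophages and B cells. These shares are not at equal depth, with medians of 17662 UMIs in fibroblasts, 9422 in endothelial cells, 2690 in B cells and 1762 in neutrophils. Rgs5 stood at 457 against 7.9 CPM, and at 1000 UMIs a cell 28% of endothelial cells, 0.0492% of macrophages and 0.0445% of neutrophils had a UMI of it. Of the wider list of 11 mural genes that entered, 8 were at least 4-fold higher and 0 lower, among them Higd1b (49.4 times), Myh11 (29.1 times) and Des (17 times), while Cspg4 had 0 UMIs. A total of 50 other kept cells had 10 or more mural UMIs, 3 of them with 5 or more UMIs of the selecting genes.

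The 29 endothelial cells with 3 or more mural UMIs had a higher median Fabp4 than the other 48. Per cell, the selecting genes, of which all 77 cells had to hold 5 UMIs or more, summed to 875, 4377 and 7043 CPM in them (lowest, median, highest) and to 963, 5014 and 8736 CPM in the 48 other endothelial cells, and median depth was 8215 UMIs in the 29 and 9649 in the 48. Fabp4 was 684, 29500.4 and 103081 CPM in the 29 cells and 0, 3554 and 112555 CPM in the 48. Summed over cells, Aqp1 was at 1366 CPM (1243 to 1498) in the 29 cells and 579.9 CPM (524 to 640.1) in the 48. Timp4 was at 314 CPM (257 to 381) in the 29 and 48.6 CPM (33.4 to 68.2) in the 48. Aplnr ran the other way, with 212 CPM (165 to 267) in the 29 and 400.3 CPM (354 to 451) in the 48, as did the receptor Calcrl, with 75.6 CPM (48.9 to 112) in the 29 and 188 CPM (157 to 224) in the 48. Of the 29, 23 were capillary, 2 tip, 2 venous, 1 arterial and 1 without a state. Without these cells, 7 in place of 11 arterial genes were at least 4-fold higher. The part of mural RNA in the other levels was not tested.

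**Figure D5:**
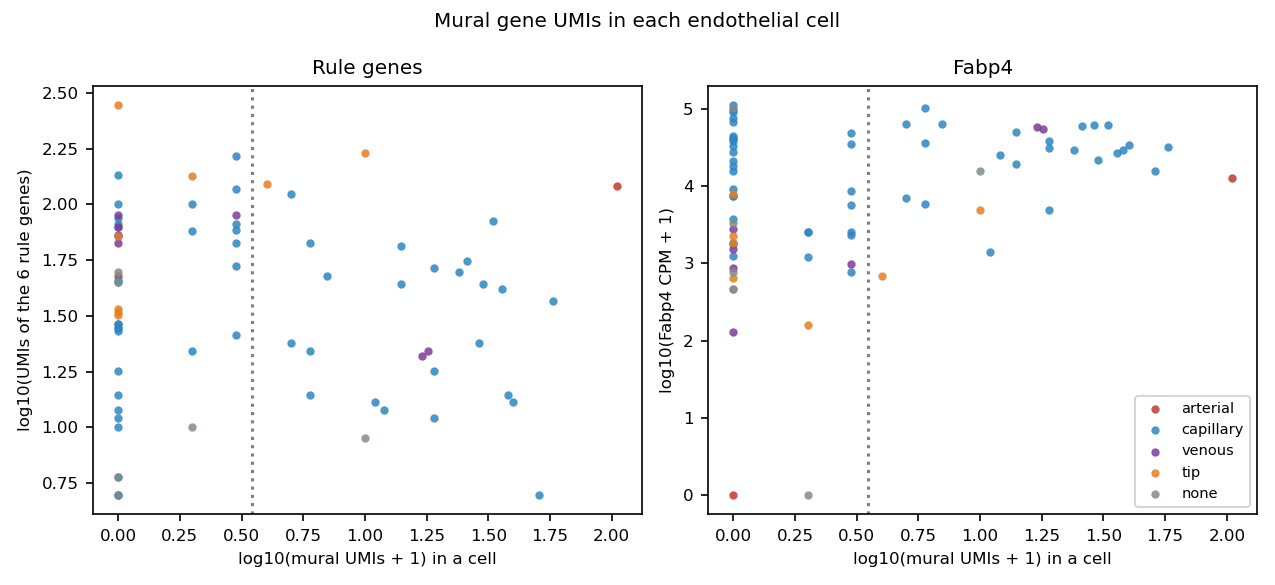
Summed UMIs of 6 mural genes per endothelial cell (x axis, log10 of UMIs + 1) against UMIs of the 6 selecting genes (left, log10) and Fabp4 CPM (right, log10 of CPM + 1), coloured by state; the dotted line parts cells with under 3 from cells with 3 or more mural UMIs. The 29 cells right of the line had a median Fabp4 of 29500.4 CPM, and the 48 left of it a median of 3554 CPM.

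Genes of other lineages were low but gathered in single cells. Of 10 macrophage genes 9 were at least 4-fold lower and of 9 fibroblast genes 7, with Col1a1 at 36.6 against 1561 CPM. The rule limited macrophage and fibroblast UMIs, so the low levels of these lists were in part set by the selection and are no finding. Ptprc, the leukocyte antigen CD45, had UMIs in 18 endothelial cells, at most 16 in 1 cell, and 4 cells held 10 or more Lyz2 UMIs. One cell held 329 of 379 Mmp9 UMIs, 1 cell 92 of 101 Wfdc2 UMIs, and 1 cell 172 of 270 Pf4 UMIs. Haemoglobin genes, which were 4-fold higher in all 4 that entered, came from 4 cells with 1883 of 1886 UMIs. Of 10 T and NK genes 8 had 0 UMIs, and Cd3e and Cd3g had 8 and 8. The 6 B-cell genes held 11 UMIs in 2 cells, 1 of these UMIs in a capillary cell. The cell with 16 Ptprc UMIs had no state and 0 UMIs of Fabp4 and Col4a1, and is not in the authors' list. Of 11 mesenchymal genes that entered 1 was higher and 3 lower, where 6.86% of all genes entered were higher and 7.39% lower. The higher one was Zeb1, a factor of mesenchymal transition (381 against 56.2 CPM), and Vim, a filament of endothelium and other cells, stood at 3422 against 2163 CPM. Against fibroblasts, 0 of 13 mesenchymal genes were higher and 5 lower. The part of these cells in the levels above was not tested.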

How the data were processed

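Gene expression in single cells of 4T1 tumours was measured with 10x Chromium 3′ libraries. The deposited matrix holds raw UMI counts, per the file headers from Cell Ranger 8.0.1, and the submitters' processing notes also name STAR. Genome build and annotation were not given in the sources used here. The authors' barcode lists were used to tell the libraries apart and as an alternative set of kept cells.

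UMIs were summed over endothelial cells (1010282) and over other kept cells (94985245), scaled to CPM (UMIs of a gene per 1000000 UMIs) and compared as a ratio with an exact conditional Poisson interval. With 1 library there is no replicate, so no p-value is given. A gene was called past 4-fold, and log2 ratios had 0.5 UMIs added. Shares at equal depth used each cell thinned to 1000 UMIs (seed 1), leaving out 2 endothelial cells. Other classes were named by shares of marker UMIs. No doublet caller was run, and free RNA was not subtracted. The ratio script was tested on simulated data. Scripts ran in Python 3.11.15 with numpy 2.4.6, scipy 1.17.1, pandas 2.3.3 and matplotlib 3.10.9.

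The endothelial cells, the 37 gene lists and the anchors of the states were chosen with earlier results of these data known. Where a gene list holds a selecting gene, the height of that gene was set by the rule. Named were the 20 highest ratios with 50 UMIs or more in endothelial cells, the 10 lowest with 1000 UMIs or more in other cells, and, per list, up to 5 genes with the largest ratios. In the lists of vessel states, VEGF, Notch and adhesion genes, all with 10 UMIs or more were named, except some that are not reported here. Sele is named from fewer than 10 expected UMIs, and genes picked for 1 cell or state were chosen after their values were seen. Alternatives varied the marker minimum, the cells kept, the comparison cells, the weighting, the depth and the fold.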

Additional observations from a re-analysis of the deposited data

How the results depend on the processing

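No called value changed sign under any alternative run. Of the summary values, 416 stayed within 1.5 times or their interval and 70 did not, and for single genes 398 and 214. No paired analysis was possible because each group has 1 library and no replicate numbers, and no replicate could be left out.

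With a fold of 2, 1280 genes were higher and 1216 lower. Against fibroblasts alone, the counts that moved were arterial 3 lower, basement membrane 5 higher and 2 lower, BMP 3 higher, checkpoint 0 lower, hypoxia 2 higher, interferon 2 higher and 0 lower, adhesion 1 lower, MHC class II 0 lower, Notch 1 lower, VEGF 3 lower and venous 3 lower. With a mean over cells in place of a sum, 970 genes were higher, and lists moved to basement membrane 0 lower, BMP 1 lower, chemokine 1 higher, hypoxia 7 lower, interferon 1 higher and 2 lower and junction 1 lower. With 6 classes at equal weight they moved to BMP 1 lower, chemokine 1 higher and Notch 1 lower, and with 3 selecting UMIs (84 cells) to interferon 1 higher.

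Thinned to 1000 UMIs a cell, which leaves fewer genes to enter, 161 genes were higher and 120 lower. The lists then had arterial 1, BMP 3, capillary 9, checkpoint 0, junction 4, adhesion 4, lipid 4, Notch 0, pan-endothelial 16, tip 7, VEGF 3 and venous 4 higher. Lower were basement membrane 0, BMP 1, checkpoint 0, chemokine 5, hypoxia 0, MHC class II 3, Notch 1, VEGF 0 and venous 0. At 2000 UMIs a cell, 51.4% were capillary and 27.8% had no state.

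With no minimum of UMIs, 1960 genes were higher and 11704 lower, among them arterial 1, capillary 1, checkpoint 6, interferon 4, junction 4, adhesion 1 and VEGF 2 lower and chemokine 2 higher. With the authors' 62 cells, basement membrane had 0, BMP 1, hypoxia 6, interferon 2 and junction 1 lower. Without cells of 3 or more mural UMIs, endothelial cells were 0.401% of kept cells, arterial genes had 7 higher and interferon 2 lower. The causes of these moves beyond the number of genes and cells were not tested. Alternatives without the deepest cell, without cells with haemoglobin and with comparison cells under 5 selecting UMIs were chosen after seeing the data. Depth limits genes under 10 UMIs, and the number of cells limits the arterial state, with 2.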

Other observations

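Genes that respond quickly to stimuli varied widely between single cells, and as a list they were within 4-fold of other kept cells. The 12 immediate early genes summed to 659, 14106 and 42251 CPM per capillary cell (lowest, median, highest), 761, 7862 and 23099.6 CPM per venous cell and 686, 3679 and 7685 CPM per tip cell. The 2 arterial cells stood at 4745 and 40089 CPM, 1 below and 1 above the capillary median, and the ranges of all states overlapped. Chemokines and cytokines summed to 0, 1199 and 25306 CPM per capillary cell, 142, 443 and 11446 CPM per venous cell and 273, 604 and 958 CPM per tip cell, and to 2760.1 and 9174 CPM in the arterial cells. Of the venous UMIs of Cxcl2, 218 of 303 were in 1 cell, and of those of Ptgs2, the inducible cyclooxygenase, 23 of 28. Csrp2, a LIM domain protein, was 262, 507 and 3267 CPM per venous cell and 0, 80.4 and 1548 CPM per capillary cell. The states were assigned in 77 cells of 1 library, and these values are descriptions.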
